A study of Mus musculus with 7 samples.

Results

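Ovarian mesenchyme was examined in the fetal mouse gonad at embryonic days E12.5 and E14.5, as 1849 of the 52542 cells of a single-cell RNA series. A member was a cell with at least 1000 detected genes, at least 5 UMIs of the fibrillar collagens Col1a1, Col1a2 and Col3a1 together and at least 1 UMI of the nuclear receptor Nr2f2. It also had no UMI of Wnt6 (supporting cells), Cdh5 or Pecam1 (endothelium), and at most 1 UMI of Upk3b (surface epithelium), of Rgs5 (mural cells) and of Dazl and Ddx4 together (germ cells). A UMI, or unique molecular identifier, is the tag by which one captured mRNA molecule is counted once. The rule gave 909 cells at E12.5, which was 21.4% (20.2 to 22.7) of the 4244 cells with at least 1000 genes, and 940 cells at E14.5, which was 9.59% (9.02 to 10.2) of 9800. The series holds 7 libraries of C57BL/6J wild-type gonads, 1 at each age from E11.5 to postnatal day 5, each made by the 10x Genomics v2 method from pooled gonads. Ovaries were dissociated with trypsin for 20 min at E11.5 and E12.5 and for 40 min at E14.5 and E16.5. Because each age is 1 library, age, library and time in trypsin cannot be told apart, and no test between the ages was possible.

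The mesenchyme of the fetal gonad fills the space between the germ cells, the supporting cells that enclose them and the vessels, and it lays down the collagen-rich matrix of the future stroma. Its cells respond to PDGF, Hedgehog, Wnt and retinoid signals from their neighbours and from the adjoining mesonephros, and they are regarded as a source of later stromal and steroid-producing theca cells. Nr2f2, also called COUP-TFII, is a common marker of this interstitial lineage.

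A level is given here as CPM, the UMIs of a gene summed over the members of a library per 1000000 of all their UMIs. Intervals in parentheses are exact 95% intervals, Poisson for levels, conditional on the summed UMIs for ratios of 2 levels and binomial for shares of cells, and all of them cover counting error only. The members carried 9305676 UMIs at E12.5 and 5589276 at E14.5, with medians of 9374 and 5524 UMIs and 3017 and 2053 genes per cell. Mitochondrial genes took a median of 3.24 and 3.10% of their UMIs. Of the 909 members at E12.5, 69 (7.59%) had a UMI of the Y-linked genes Ddx3y, Eif2s3y, Kdm5d or Uty, and 842 (92.6%) had one of Xist, which is transcribed from the inactive X chromosome of female cells. Both kinds were found in 16 of these cells, whereas none of the 940 members at E14.5 had a Y-linked UMI. Without the 69 cells, 250 genes were at least 2-fold higher and 493 at least 2-fold lower at E14.5, beside 233 and 474 with them. The E12.5 and E14.5 libraries shared 77 cell barcodes, of which none belonged to members of both, and the E11.5 library shared 4 and 3 barcodes between its own members and theirs. The libraries from E11.5 to E14.5 shared from 56 to 136 barcodes with each other and from 1 to 3 with the E16.5 library, and the source of the shared barcodes was not tested.

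The label of the cells was held against its markers. Nr2f2 (chr7:70351944-70366735 in GRCm38, the build of all positions given here), which the rule used, was at 553 CPM at E12.5 (538 to 568) and 445 CPM at E14.5 (428 to 463), against 71.5 and 34.0 CPM in Wnt6-positive supporting cells. Tgfbi, which encodes a secreted collagen-binding protein and was not used by the rule, was at 467 CPM at E12.5 (454 to 481) and 334 CPM at E14.5 (319 to 349), against 75.0 and 68.7 CPM in the Wnt6-positive cells. Pdgfrb, a receptor for platelet-derived growth factor, was at 188 CPM at E12.5 (179 to 197) and 63.9 CPM at E14.5 (57.4 to 70.9), but it was at 196 and 101 CPM in the Rgs5-positive cells as well, so it does not separate the mesenchyme from mural cells. Since each member needed an Nr2f2 UMI and no Wnt6 UMI, the level of Nr2f2 checks nothing. Of these markers Tgfbi bears on the label in both libraries, and Pdgfrb does so with the limit just given. The gonadal factor Wt1 was also expressed, at 210.0 CPM at E12.5 and 235 CPM at E14.5.

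**Figure D1:**
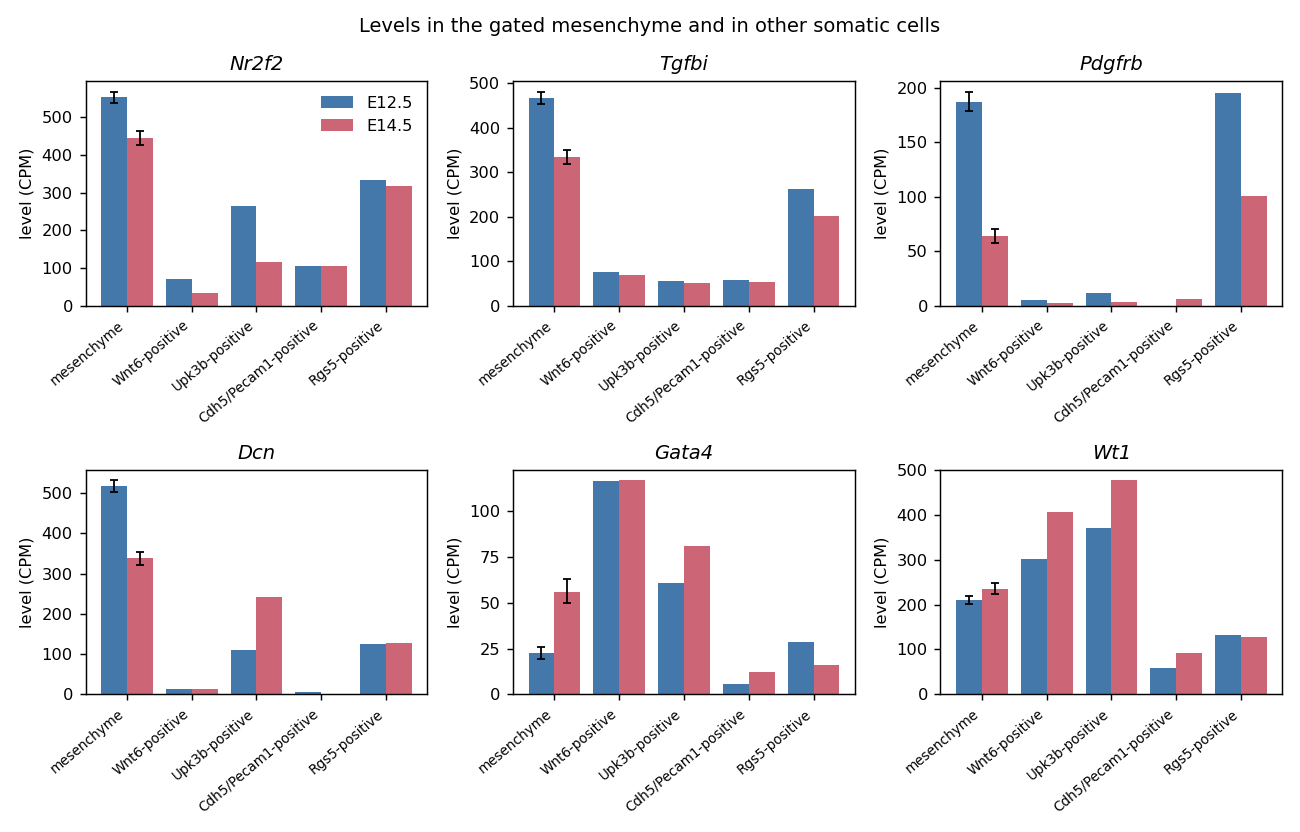
Levels in CPM of Nr2f2, Tgfbi, Pdgfrb, Dcn, Gata4 and Wt1 in 5 classes of cells at E12.5 and E14.5, with 95% Poisson intervals on the mesenchyme. Of the 5 classes, Nr2f2, Tgfbi and Dcn stood highest in the mesenchyme at both ages, Pdgfrb was higher in the Rgs5-positive cells, and Gata4 was lower in the mesenchyme than in the Wnt6-positive and Upk3b-positive cells.

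All cells outside the rule with at least 1000 genes, no more than 1 germ cell UMI and at most 10% haemoglobin UMIs, 2956 at E12.5 and 6087 at E14.5, were taken as the other somatic cells. Because the rule chose the members on these same cells, the following levels describe the members and test nothing. At E12.5, 422 of 8415 genes (5.01%) were at least 2-fold above the other somatic cells and 579 (6.88%) at least 2-fold below, and at E14.5 there were 584 of 8048 (7.26%) above and 805 (10.0%) below. Of 7662 genes counted in both libraries, 287 were above and 421 below in both. Among the 12 genes furthest above in both libraries, several encode proteins that bind collagen or elastic fibres. Lum, the collagen-binding proteoglycan lumican (chr10:97565128-97572703), was at 123 and 93.9 CPM, 16.6-fold above the other somatic cells at E12.5 and 13.5-fold at E14.5. Dcn, the related decorin (chr10:97479609-97518143), was at 516 and 337 CPM, with folds of 9.23 and 6.33 over the other somatic cells. The microfibril protein Mfap4 was 5.66 and 10.4 times above them, the elastic fibre protein Emilin1 5.17 and 6.55 times, and Mgp, matrix Gla protein, an inhibitor of calcification, 5.84 and 8.03 times.

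Others of these 12 genes act at the cell surface or as secreted signals. Sfrp1, a secreted antagonist of Wnt signalling (chr8:23411502-23449632), was at 510.2 and 539.6 CPM, 5.56-fold above the other somatic cells at E12.5 and between 10.8- and 12.2-fold (95% interval) at E14.5. Ptn, the heparin-binding growth factor pleiotrophin, was at 1062 and 1256 CPM, with folds of 5.21 and 7.60. The chemokine Cxcl12 stood 5.62 and 8.68 times above the other somatic cells, the integrin subunit Itga8 7.90 and 13.5 times, and the mesenchymal cadherin Cdh11 5.08 and 6.61 times. Pdgfrb, a receptor for platelet-derived growth factor, was 6.07 and 10.4 times above.

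The markers differed in how they stood on either side of the collagen threshold of the rule. Cells with 3 or 4 collagen UMIs that met every other condition, just outside, had Tgfbi at 434 CPM at E12.5 and 356 at E14.5, and cells just inside with 5 or 6 had 420.0 and 373. In members with at least 7 collagen UMIs Tgfbi was at 476 CPM at E12.5 and 328 CPM at E14.5 (312 to 344). At E14.5 this interval overlapped those just inside (331 to 419) and just outside (312 to 404). Pdgfrb was at 125 and 35.6 CPM just outside, at 151 and 30.2 just inside and at 194 and 69.2 in members with at least 7 collagen UMIs. Dcn was higher with more collagen UMIs, from 91.8 and 131 CPM just outside to 124 and 146 just inside and to 588 and 368 in the members with at least 7. Ptn went the same way, from 404 and 891 CPM to 557 and 988 and then to 1155 and 1298. For Dcn and Pdgfrb at both ages and Ptn at E14.5, the intervals just outside and just inside overlapped. Those in members with at least 7 collagen UMIs lay above both.

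Between the ages, 7983 genes with a mean of the 2 levels of at least 10 CPM were compared, and a ratio of 2 or more in either direction was called. At E14.5, 233 genes (2.92%) rose and 474 (5.94%) fell relative to E12.5. The median over all 7983 genes was shifted by -0.14 on the log2 scale, and 33.0% of all calls were higher. Centring the ratios on that median gave 327 higher and 328 lower genes (49.9% higher). By its construction, centring evens the genes above and below the median, but it does not set the numbers past 2-fold. With a minimum of 50 CPM, 77 were higher and 70 lower. Of the genes compared, 646 were under 10 CPM at one age and so were counted through the age where they were high. In the plot of all genes at the 2 ages, the called genes lie on both sides of a narrow diagonal band.

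**Figure D2:**
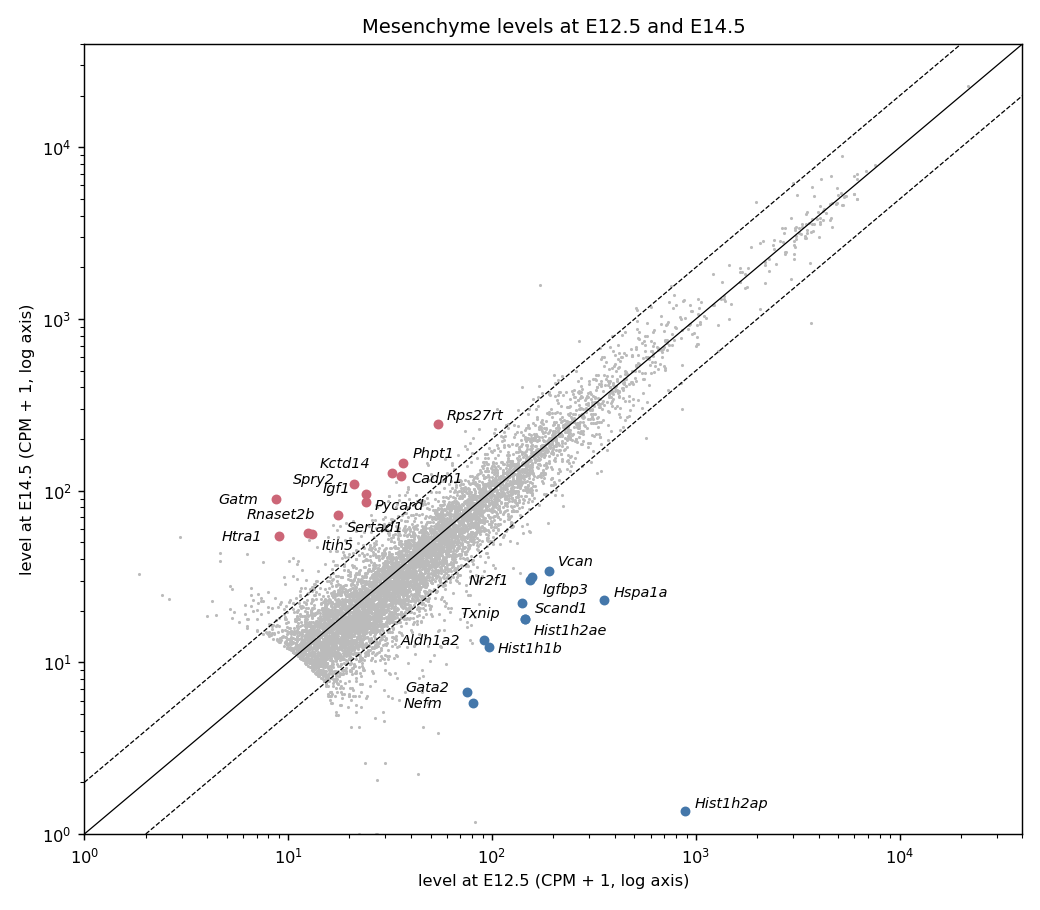
Level of each of 7983 genes in the mesenchyme at E12.5 (horizontal) and E14.5 (vertical), as CPM + 1 on log axes, with dashed lines at a 2-fold difference. The 12 named higher genes are red and the 12 named lower genes blue, and most genes lie between the dashed lines, with Hist1h2ap at 2 UMIs at the lower right.

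Named genes were ranked by the ratio with 10 CPM added to each level, among genes with a mean level of at least 30 CPM and outside the marker lists, so genes of lower level or of those lists can have larger ratios. The 12 higher genes of this ranking were led by Gatm, the mitochondrial enzyme that makes the creatine precursor guanidinoacetate. Gatm (chr2:122594467-122611303) was at 7.74 CPM at E12.5 (6.05 to 9.74) and 88.6 CPM at E14.5 (80.9 to 96.7), a rise of 11.4-fold (8.92 to 14.9). Spry2, a feedback inhibitor of receptor tyrosine kinase signalling, went from 20.1 to 108 CPM, 5.39-fold (4.56 to 6.38). Igf1, the insulin-like growth factor, went from 23.2 to 94.3 CPM, 4.06-fold (3.46 to 4.78), and Htra1, a secreted serine protease, from 8.06 to 53.9 CPM, 6.68-fold (5.17 to 8.72). These genes were chosen by the size of their rise.

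The remaining 8 of the 12 genes chosen by size rose between 3.48-fold and 4.82-fold. Cadm1, an immunoglobulin-family adhesion molecule, rose 3.48-fold to 120.4 CPM. Itih5, a secreted hyaluronan-binding protein, rose 4.52-fold, Pycard, the adaptor of inflammasomes, 3.67-fold, and the transcriptional coregulator Sertad1 4.28-fold. Phpt1, a protein histidine phosphatase, was at 35.8 and 144 CPM. Rnaset2b, a ribonuclease with a near-identical copy, Rnaset2a, and Rps27rt, a copy of a ribosomal protein gene, rose 4.82-fold and 4.61-fold, and reads of such copies may be shared between them. Kctd14 rose 4.02-fold to 126 CPM, and it was at 2259.7 and 1586 CPM in the Wnt6-positive cells. In the members, 10 marker genes of supporting cells summed to 72.1 CPM at E12.5 and 139.7 CPM at E14.5. The part of transcripts from supporting cells in the rise of Kctd14 was not tested.

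Values of the Wnt6-positive supporting cells, which come from the same 2 libraries, are given beside these. Gatm was 4.56 times its E12.5 level in them, at 53.4 and 244 CPM. Spry2 was 31.1 times its E12.5 level there, Rps27rt 4.74 times and Sertad1 5.87 times. For Igf1 the ratio in the Wnt6-positive cells was 1.33, for Htra1 1.13, for Cadm1 0.625 and for Kctd14 0.702. Igf1, Htra1 and Cadm1 were thus called in the mesenchyme and not in the Wnt6-positive cells, and the difference between the 2 was not tested. The same holds for Kctd14, but its level was far higher in the Wnt6-positive cells, so its call cannot be taken as particular to the mesenchyme.

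Among the 12 genes chosen for their falls by the same measure were transcription factors, a retinoid enzyme and a neuronal gene. Nr2f1 (chr13:78188973-78199757), a nuclear receptor close to Nr2f2, was at 153 CPM at E12.5 (145 to 162) and 29.3 CPM at E14.5 (25.0 to 34.2), lower by 5.23-fold (4.44 to 6.18). Gata2, a zinc finger transcription factor, was at 74.1 and 5.73 CPM, lower by 13.0-fold (9.09 to 19.1), and Nefm, a neurofilament subunit known from neurons, was at 79.3 and 4.83 CPM, lower by 16.4-fold (11.2 to 25.1). Aldh1a2, which makes retinoic acid from retinal (chr9:71215789-71296243), was at 90.7 CPM at E12.5 (84.7 to 97.0) and had 70 UMIs at E14.5 (9.76 to 15.8 CPM), lower by 7.24-fold (5.67 to 9.38). In the Wnt6-positive cells Nr2f1, Gata2 and Nefm were lower at E14.5 as well, by 3.41-, 2.41- and 2.69-fold, with Gata2 at 5.14 and 2.13 CPM and Nefm at 2.93 and 1.09 CPM, while Aldh1a2 was 1.59 times its E12.5 level.

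Matrix and growth factor genes were also among them. Vcan, the hyaluronan-binding proteoglycan versican, was at 189 CPM at E12.5 (180.3 to 198) and 33.1 CPM at E14.5 (28.5 to 38.2), lower by 5.71-fold (4.91 to 6.68), and Igfbp3, a carrier that binds insulin-like growth factors, was at 156 and 30.2 CPM, lower by 5.15-fold (4.39 to 6.08). Txnip, which binds thioredoxin, was lower by 6.57-fold and Scand1, a SCAN domain protein, by 8.52-fold, and in the Wnt6-positive cells by 6.54- and 8.56-fold. The histone genes Hist1h2ae and Hist1h1b were each lower by 8.45-fold, and Hist1h2ap fell from 885 CPM to 0.358 CPM, 2 UMIs, a ratio of 0.000404 (4.89e-05 to 0.00146). In the Wnt6-positive cells Hist1h2ap was at 312 and 0.0906 CPM, and among germ cells thinned to 3000 UMIs it was found in 73.5 and 0.887%, so its lower value at E14.5 was seen in these other cells of the library too. Histone copies are alike and share reads, so the values of single histone genes are uncertain. Hspa1a, an inducible heat shock protein, also belongs to the 12 and is described with its group below.

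Genes at 0 at one age were counted against a floor of 3 UMIs per library, which is 0.537 CPM at E14.5. Foxd1, a forkhead factor of renal and stromal mesenchyme, had 197 UMIs at E12.5 (21.2 CPM) and 0 at E14.5, at least 39.4-fold lower. The neutrophil genes S100a8 and S100a9 were at 0 at E14.5 as well, at least 49.3- and 48.5-fold lower. Among 11 marker genes of immune cells, Lcn2 was at 5.48 and 0 CPM and Lyz2 at 7.52 and 0.716 CPM in the members. The 11 summed to 62.3 and 33.5 CPM. The part of transcripts from immune cells in the falls of S100a8 and S100a9 was not tested.

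For the gene lists, the number of members called and the median log2 ratio of E14.5 to E12.5 are given beside the -0.14 of all genes and the 2.92 and 5.94% called there. Of 18 collagen chains counted, 1 rose and 2 fell, with a median of -0.02. Col1a2, Col3a1 and Col1a1 belong to the rule. Col6a2, a chain of the beaded collagen VI, rose 3.06-fold (2.78 to 3.36), from 72.4 to 221 CPM, while Col11a1 and Col14a1 fell to 12.7 and 25.9 CPM. All collagen chains together summed to 2541 and 2945 CPM. Without the 3 collagens of the rule, 1 of 15 rose and 2 fell (median -0.08), and the sums were 839 and 910.5 CPM.

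Of 29 matrix glycoproteins and proteoglycans, 4 rose and 3 fell (median -0.27). Eln, elastin, rose 3.65-fold (3.01 to 4.43) to 61.5 CPM, Fbln5, which helps elastin to assemble, 3.19-fold to 52.8 CPM, Mfap4 2.87-fold and the matricellular Thbs1 2.21-fold, which in the Wnt6-positive cells was 7.52 times its E12.5 level. Other counted genes of elastic fibres and microfibrils in this list, Fbn1, Fbn2, Fbln1, Emilin1, Efemp2, Mfap2 and Fbln2, were within 2-fold, at ratios from 0.740 to 1.41. Mfap5, of too low a level to be counted, was at 4.41 and 1.43 CPM. The genes that fell were Vcan, the heparan sulphate proteoglycan Gpc6 (99.9 and 36.0 CPM) and Smoc2 (44.9 and 3.22 CPM). Of 16 collagen processing enzymes, Lox and Loxl1, which crosslink collagen and elastin, and Adamts2, which trims procollagen, rose 3.50-fold, 2.30-fold and 2.30-fold, and none fell (median 0.08). Of 12 matrix proteases and inhibitors, Serpine2, a protease inhibitor, rose 2.15-fold and none fell (median 0.00), with the collagenase Mmp14 at 155 and 199.8 CPM and the inhibitor Timp3 at 272 and 216 CPM.

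**Figure D3:**
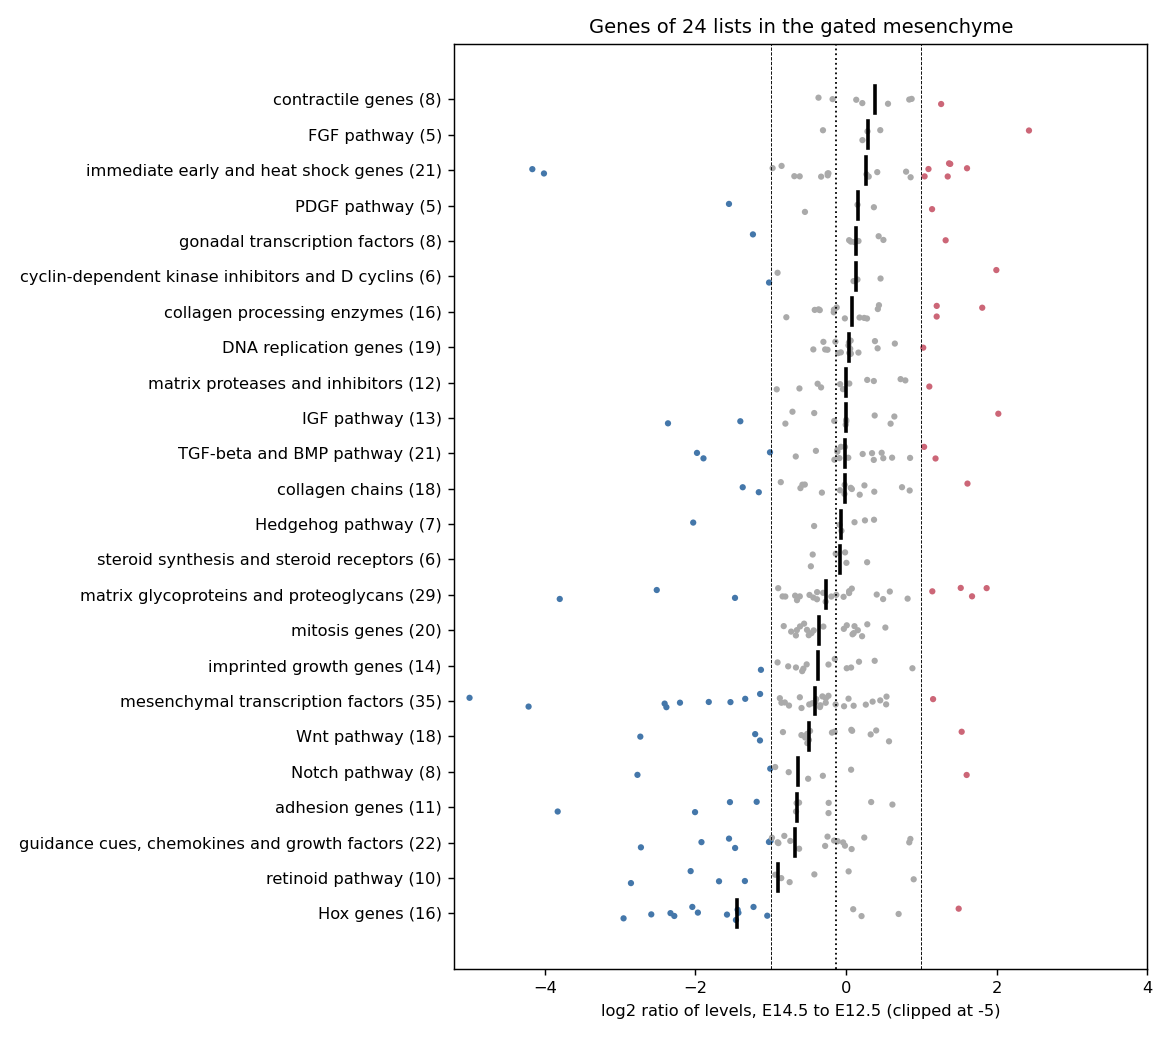
Log2 ratio of E14.5 to E12.5 for each counted gene of the lists in the mesenchyme, with a black bar at each list's median, a dotted line at the median of all genes, -0.14, and thin dashed lines at a 2-fold difference, genes past which are red or blue. The Hox genes have the lowest median, -1.45, and Foxd1, at 0 UMIs at E14.5, is drawn at the lower edge of the axis.

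Most of the counted Hox genes, which give cells their position along the body axis, fell. Of 34 Hox genes matched by symbol, 16 were counted, of which 12 fell and 1 rose (median -1.45), beside 5.94 and 2.92% of all genes. Of those that fell, Hoxa9, Hoxa10, Hoxb2, Hoxb4, Hoxc4 and Hoxc5 were under 10 CPM at E14.5 and were counted through E12.5. Hoxa5, Hoxa7, Hoxc6, Hoxc8, Hoxc9 and Hoxc10 fell and were above 10 CPM at both ages. The gene that rose, Hoxb9, was under 10 CPM at E12.5 and was counted through E14.5. Hoxc8 (chr15:102990607-102994111) was at 153 CPM at E12.5 (145 to 161) and 56.4 CPM at E14.5 (50.3 to 62.9), lower by 2.71-fold (2.40 to 3.08), Hoxa5 at 78.3 and 15.6 CPM, lower by 5.03-fold (4.03 to 6.36), and Hoxa9 at 44.4 and 5.73 CPM, lower by 7.75-fold. Hoxb9 rose, from 5.27 to 14.8 CPM, while Hoxd8, Hoxd9 and Hoxd10 were at ratios of 1.07, 1.15 and 1.62. All 4 counted genes of the Hoxa cluster and all 6 of the Hoxc cluster fell, while the 3 counted Hoxd genes were within 2-fold. In the Wnt6-positive cells the median of the 16 was -0.28, and Hoxc8 and Hoxc9 there were at ratios of 0.932 and 0.949, but Hoxa5, Hoxa7, Hoxb2 and Hoxb4 were at 0.0938, 0.130, 0.0460 and 0.0672.

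Mesenchymal transcription factors were counted in 35 cases, of which 1 rose and 9 fell (median -0.41, the same with Foxd1 at its bound). Nr2f1 and Foxd1 are described above. Osr2, a zinc finger factor of mesonephric and limb mesenchyme, was at 53.2 and 2.86 CPM, lower by 18.6-fold (11.3 to 32.8). Twist2, a repressor of mesenchymal differentiation, was at 48.5 and 9.12 CPM, lower by 5.31-fold, and the T-box factor Tbx3 at 74.3 and 16.1 CPM, lower by 4.61-fold. Hmga2, an architectural chromatin protein of fetal growth, was at 859 and 296 CPM, lower by 2.90-fold, and Foxp1, Foxp2 and Tshz3 were lower by 2.53-fold, 3.54-fold and 2.21-fold. Maf, a bZIP factor, was the gene that rose, from 103 to 229 CPM, 2.23-fold (2.05 to 2.43). The other counted genes stayed within 2-fold, among them Tcf21 (61.9 and 66.4 CPM) and Sox4 (619 and 633 CPM).

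Gonadal transcription factors were counted in 8 cases, of which 1 rose and 1 fell (median 0.14). Gata4, needed for the formation of the gonad (chr14:63198922-63271692), was at 22.5 CPM at E12.5 (19.5 to 25.7) and 56.2 CPM at E14.5 (50.1 to 62.7), a rise of 2.50-fold (2.09 to 2.99), and in the Wnt6-positive cells its ratio was 1.00. Cbx2, a Polycomb protein, was at 16.4 and 6.98 CPM, lower by 2.36-fold. Gata6, Wt1 and Lhx9 were at ratios of 1.03, 1.12 and 1.08.

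Of the 20 genes counted in the Hedgehog, PDGF and Notch lists, 2 rose and 4 fell. In the Hedgehog list of 7 genes, Ptch1, the receptor of the Hedgehog ligands and itself a target of the pathway, was at 68.7 and 16.8 CPM, lower by 4.08-fold (3.28 to 5.13), and no gene rose (median -0.06). Smo and Gas1, a coreceptor, were at 65.6 and 84.8 CPM and 408 and 384 CPM. Of 5 genes of the PDGF list, Pdgfrb was lower by 2.94-fold (2.62 to 3.30), Pdgfrl, a receptor-like protein, was the 1 that rose, 2.21-fold, and Pdgfra stayed at 80.8 and 89.8 CPM (median 0.15). Of 8 Notch genes, Notch2 rose 3.03-fold, while the target genes Hes1 and Hey2 were lower by 2.01-fold and 6.82-fold (median -0.63). Dlk1, a ligand-like membrane protein, was at 506 and 530.5 CPM. The medians of the Hedgehog, PDGF and Notch lists in the Wnt6-positive cells were 0.07, -0.67 and -0.97.

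Of 18 genes of the Wnt list, 1 rose and 3 fell (median -0.49). Lgr4, a receptor of R-spondins, rose 2.90-fold, and Rspo3, one of the R-spondins, was at 58.2 and 8.77 CPM, lower by 6.64-fold (4.95 to 9.09). The receptors Fzd1 and Ror1 were lower by 2.31-fold and 2.21-fold, whereas Wnt5a and Wnt4 were at ratios of 0.559 and 1.25. Of 21 genes of the TGF-beta and BMP list, 2 rose and 3 fell (median -0.01). The inhibitor of DNA binding Id2 rose 2.28-fold to 1155 CPM and the TGF-beta binding protein Ltbp4 2.05-fold, while the ligands Tgfb1, Bmp4 and Inhba were lower by 3.94-fold, 2.01-fold and 3.72-fold. Other counted ligands of these lists were within 2-fold, with Rspo1, Tgfb2, Tgfb3 and Gdf10 at ratios of 1.49, 0.923, 1.29 and 0.923. In the Wnt6-positive cells the medians of the Wnt and the TGF-beta and BMP lists were 0.12 and 0.32.

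The retinoid list had 4 of 10 genes lower and none higher (median -0.90). Besides Aldh1a2, these were the binding protein Crabp2 (28.8 and 8.95 CPM), the receptor Rarb (26.3 and 10.4 CPM) and Stra6, a membrane receptor for the retinol carrier (18.7 and 4.47 CPM). Crabp2 and Stra6, under 10 CPM at E14.5, were counted through E12.5. In the Wnt6-positive cells the median of the 10 retinoid genes was -0.01. Of 5 FGF genes, Spry2 rose and none fell (median 0.29). Of 13 IGF genes, Igf1 rose, and Igfbp3 and the RNA binding protein Igf2bp1 (2.65-fold) fell (median 0.00), while Igfbp4 was at 407 and 407 CPM. Among 14 imprinted growth genes, Plagl1, a zinc finger regulator of fetal growth, was lower by 2.19-fold and no gene rose (median -0.38). Meg3 and H19, noncoding RNAs of imprinted loci, were at 2931 and 1721 CPM and 1005 and 699 CPM.

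Guidance, adhesion and contractile genes did not share one direction. Of 22 guidance cues, chemokines and growth factors, 6 fell and none rose (median -0.68): Cxcl12, Slit3, Sema3a, Sema3c, Sema3d and the receptor Epha4. Cxcl12 (chr6:117168535-117181367) was at 124 CPM at E12.5 (117 to 131) and 60.8 CPM at E14.5 (54.5 to 67.7), lower by 2.03-fold (1.80 to 2.30), and Slit3 was at 21.3 and 3.22 CPM, lower by 6.61-fold (4.07 to 11.4). Of 11 adhesion genes, 4 fell and none rose (median -0.66). Thy1, a surface glycoprotein of fibroblasts, was at 22.9 and 1.61 CPM, lower by 14.2-fold (7.35 to 31.5), and N-cadherin, Cdh2, was at 40.9 and 10.2 CPM, lower by 4.01-fold. The others were the protocadherins Pcdh7 and Pcdh19, lower by 2.91-fold and 2.28-fold. Of 8 contractile genes, Acta2, the smooth muscle actin, was at 169 CPM at E12.5 (160.5 to 177) and 405 CPM at E14.5 (388 to 422), a rise of 2.40-fold (2.25 to 2.56), and none fell (median 0.39). Steroid synthesis genes and steroid receptors gave 0 calls among 6 counted (median -0.08), and Star, Cyp11a1 and Cyp17a1 did not reach 10 CPM, the level for counting. For the guidance, adhesion and contractile lists the medians in the Wnt6-positive cells were -0.70, -0.10 and -0.02.

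Mitosis genes were higher in the mesenchyme than in the other somatic cells at both ages, with median log2 ratios of 0.75 at E12.5 and 2.18 at E14.5. Of 20 mitosis genes, 1 was at least 2-fold above the other somatic cells at E12.5 and 20 at E14.5, beside 5.01 and 7.26% of all genes. Their levels summed to 2335 and 2067 CPM in the mesenchyme, to 1399 and 438 CPM in the other somatic cells, and to 661 and 165 CPM in the Wnt6-positive cells. Within the mesenchyme no mitosis gene was called (median -0.37). Birc5, which protects dividing cells from death, was at 217 and 252 CPM, and the kinase Cdk1 at 154 and 151 CPM. The median of the mitosis genes in the Wnt6-positive cells was -1.84. Of 19 DNA replication genes, 1 was at least 2-fold above the other somatic cells at E12.5 and 5 at E14.5. Between the ages Pcna, the sliding clamp of DNA polymerase, rose 2.03-fold and no replication gene fell (median 0.04, and -0.56 in the Wnt6-positive cells). Of 6 kinase inhibitors and D cyclins, Cdkn1a rose 3.99-fold and Ccnd1 fell, from 57.1 to 28.1 CPM (median 0.13). At each age none of these 6 was at least 2-fold above the other somatic cells and 3 were at least 2-fold below. Of all genes, 6.88% at E12.5 and 10.0% at E14.5 were at least 2-fold below.

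Among 21 immediate early and heat shock genes, which cells switch on within minutes of many stimuli, 6 rose and 2 fell (median 0.27). The transcription factors Fosb, Junb, Jund, Nr4a1 and Klf4 rose 2.61-fold, 2.14-fold, 2.06-fold, 2.55-fold and 3.05-fold, and the survival gene Ier3 2.58-fold. Fos was at 346 and 601 CPM, below the threshold, and Jun at 1279 and 651 CPM. In the Wnt6-positive cells the median of the list was 1.33, higher than in the mesenchyme. The trypsin time of the 2 libraries moved with these genes, and its part in them was not tested.

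The heat shock genes Hspa1a and Hspa1b fell. Hspa1a was at 355 CPM at E12.5 (343 to 367) and 22.0 CPM at E14.5 (18.3 to 26.3), lower by 16.1-fold (13.5 to 19.5), and Hspa1b at 28.9 and 1.61 CPM, a ratio of 0.0557 (0.0252 to 0.107). They are neighbouring copies that may share reads, and 247 of the 250 upstream bases of the 2 genes were the same. Of 17 genes of the list with an upstream sequence in the RefSeq table of GRCm38.p6, 3 held the heat shock core motif, spelled GAANNTTC on either strand, in the 250 bases before the start, as did 2088 of 27025 genes (7.73%). A TGACGNNA match, the letters of a cyclic AMP response type element on either strand, was found in 7 of 17 and in 1757 (6.50%) of all. The windows below show one motif match in each of 6 genes with the matched letters in capitals. They are shown for the pair of heat shock genes that fell, for Fosb and Junb, which rose, and for Jun and Fos, which were not called. Such a match is a description of the letters, and no factor was measured at these sites.
Hspa1a, chr17:34972223-34972290, minus strand: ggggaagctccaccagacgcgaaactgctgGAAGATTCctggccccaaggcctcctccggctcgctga
Hspa1b, chr17:34959305-34959372, minus strand: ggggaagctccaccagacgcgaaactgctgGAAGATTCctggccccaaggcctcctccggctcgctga
Jun, chr4:95052313-95052380, minus strand: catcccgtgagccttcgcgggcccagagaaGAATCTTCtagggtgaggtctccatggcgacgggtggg
Fos, chr12:85473731-85473798, plus strand: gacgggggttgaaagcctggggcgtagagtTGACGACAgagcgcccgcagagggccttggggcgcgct
Fosb, chr7:19310068-19310135, minus strand: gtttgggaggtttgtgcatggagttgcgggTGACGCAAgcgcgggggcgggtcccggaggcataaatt
Junb, chr8:84978817-84978884, minus strand: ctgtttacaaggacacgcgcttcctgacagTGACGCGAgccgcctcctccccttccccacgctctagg

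The match began 104 bases before the start in Hspa1a and Hspa1b, 128 in Jun, 129 in Fos, 60 in Fosb and 106 in Junb. Jun was at a ratio of 0.509 between the ages and Fos at 1.74. Of the genes shown, those with the heat shock core, Hspa1a, Hspa1b and Jun, were lower at E14.5. Those with the cyclic AMP type match, Fos, Fosb and Junb, were higher, but Btg2, which also held that match, was lower, at a log2 ratio of -0.62. The genes shown were chosen with their directions known, and Hspa1a and Hspa1b are near copies, so their directions test nothing. Whether motif and direction go together was not tested.

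Some genes were seen in part of the members. With each member thinned to 3000 UMIs, Gata4 was found in 39 of 891 members at E12.5 (4.38%, 3.13 to 5.94) and 133 of 887 at E14.5 (15.0%, 12.7 to 17.5). Unthinned, these shares were 14.6 and 26.5%, and among germ cells Gata4 was found in 0.687 and 1.29% after thinning. Germ cells were deeper before thinning, with medians of 24661.5 and 13216 UMIs. Wnt6-positive cells held it in 30.6 and 30.4%. Nr2f1, chosen as a divider after its values were seen, was found in 293 members at E12.5 (32.9%, 29.8 to 36.1) and 79 at E14.5 (8.91%, 7.11 to 11.0), against 0.687 and 1.25% of germ cells. Dividing members, with a UMI of Mki67, Top2a, Cdk1, Ccna2 or Ccnb1, were 361 (40.5%, 37.3 to 43.8) and 399 (45.0%, 41.7 to 48.3).

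Members with an Nr2f1 UMI had more of the mesenchymal factor Ebf1. At E12.5 Ebf1 was at 86.5 against 40.7 CPM with and without Nr2f1, a ratio of 2.12 (1.52 to 2.97), and at E14.5 at 122 against 24.8 CPM, a ratio of 4.94 (3.06 to 7.82). Cxcl12 went the same way, at ratios of 1.47 (1.18 to 1.82) and 2.45 (1.63 to 3.58). Tgfbi, by contrast, was at 0.913 (0.812 to 1.02) and 0.793 (0.607 to 1.02). In members with a Gata4 UMI Ebf1 was at 8.55 against 57.9 CPM with and without Gata4 at E12.5, a ratio of 0.148 (0.00371 to 0.835), and 0.198 (0.0400 to 0.598) at E14.5, but the levels with Gata4 rest on 1 and 3 Ebf1 UMIs. Ckb, a creatine kinase, was higher in the members with Gata4 at E12.5, at a ratio of 5.31 (3.32 to 8.21), and at 1.24 (0.864 to 1.75) at E14.5. Gata4 was found in 2.05% of the members with Nr2f1 and 5.52% of those without at E12.5, and in 2.53 and 16.2% at E14.5. These members share their library, so the intervals do not describe animals.

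**Figure D4:**
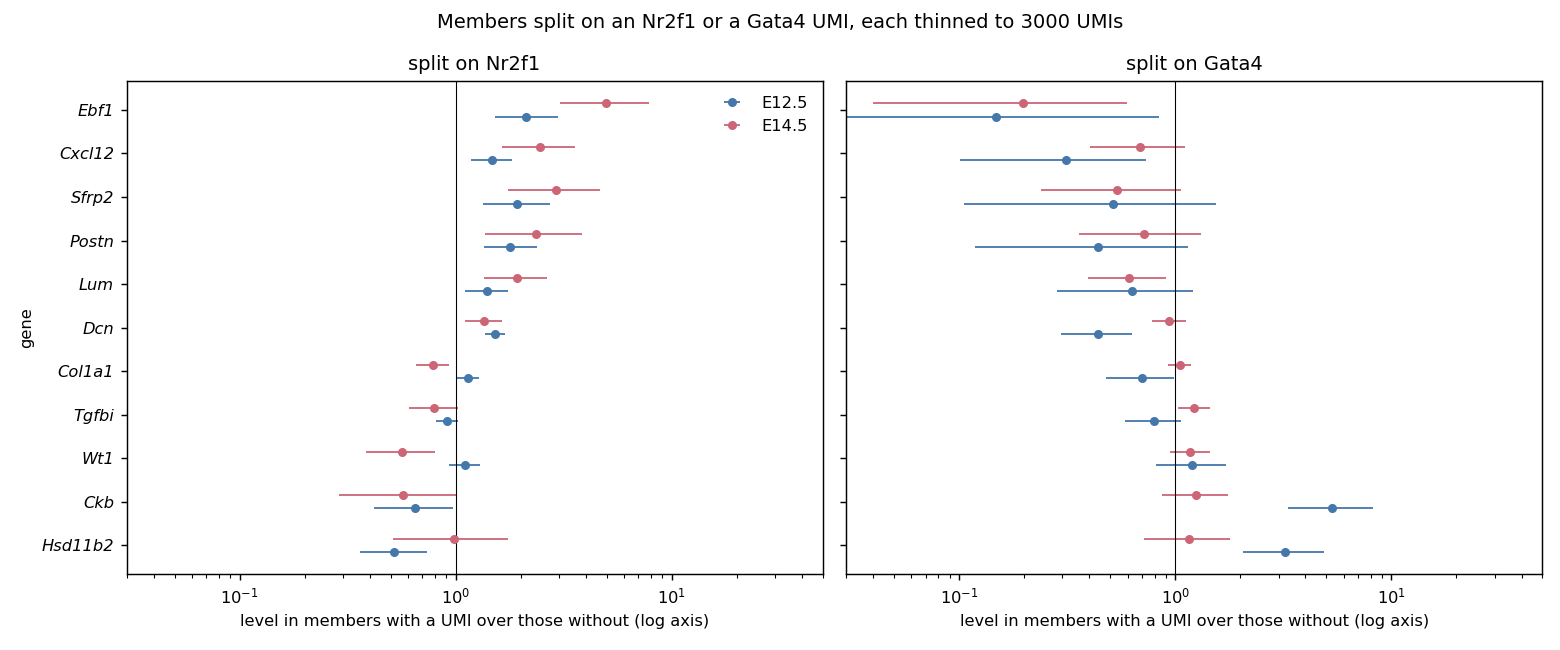
Ratio of the level in members with a UMI of Nr2f1 (or Gata4) to members without, at E12.5 and E14.5, on a log axis from 0.03 to 50 with 95% intervals, one of which is cut at 0.03, every member thinned to 3000 UMIs. The points of Ebf1 and Cxcl12 lie above 1 for Nr2f1 and below 1 for Gata4, though the Gata4 interval of Cxcl12 at E14.5 crosses 1.

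In pooled levels, fewer cells that carry a gene and less of it in each cell cannot be told apart, so the 2 ages were also compared within subsets of the members. These subsets were taken on unthinned cells, with medians of 9374 and 5524 UMIs over all members, so that having no UMI of a gene does not select like cells at both ages. In members with no Nr2f1 UMI (367 at E12.5 and 808 at E14.5), 227 genes were higher and 430 lower, and 8 Hox genes fell and none rose, with a median of -1.06 beside -1.45. Non-dividing members (396 and 455) had 305 genes higher and 708 lower. In members with a Gata4 UMI (133 at E12.5 and 249 at E14.5) the Hox median was -0.78, and in those with none it was -1.56. Of 103 called genes of the lists and named genes outside the division, 22 were under 2-fold in members with no Nr2f1 UMI and 31 in members with a Gata4 UMI, among the latter Tbx3, Twist2, Slit3, Stra6 and Hoxc8, at log2 ratios of -0.08, -0.59, -0.57, -0.20 and -0.32. Several called genes lay close to 2-fold. Over the 17 alternatives Bmp4 and Sema3c were each under 2-fold in 10, Hes1 in 7, Cxcl12 and Ltbp4 in 6 and Ccnd1 in 5.

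The same rule applied to the libraries on either side gave 2461 cells at E11.5 and 2038 at E16.5, whose levels are placed beside those of the 2 ages with no comparison beyond the values. At E11.5, 28.3% of the cells had a Y-linked UMI. In the order E11.5, E12.5, E14.5 and E16.5, Nr2f1 was at 208, 153, 29.3 and 22.3 CPM and Aldh1a2, at 116 and 90.7 CPM at E11.5 and E12.5, was lowest at E14.5 (70 UMIs, 9.76 to 15.8 CPM) and stood at 20.9 CPM at E16.5. Hoxc8 was at 142, 153, 56.4 and 57.0 CPM, and Pdgfrb at 32.0, 188, 63.9 and 114 CPM. Igf1 stood at 183, 23.2, 94.3 and 296 CPM, lowest at E12.5, while Eln was at 3.27, 16.9, 61.5 and 263 CPM and Mgp at 3.54, 105, 299.9 and 972 CPM, each higher at every later age. Gata4 was at 14.4, 22.5, 56.2 and 101 CPM, Acta2 at 171, 169, 405 and 287 CPM and Maf at 34.9, 103, 229 and 513 CPM. The collagen chains together summed to 1276, 2541, 2945 and 9349 CPM, and the mitosis genes to 2829, 2335, 2067 and 2129 CPM.

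**Figure D5:**
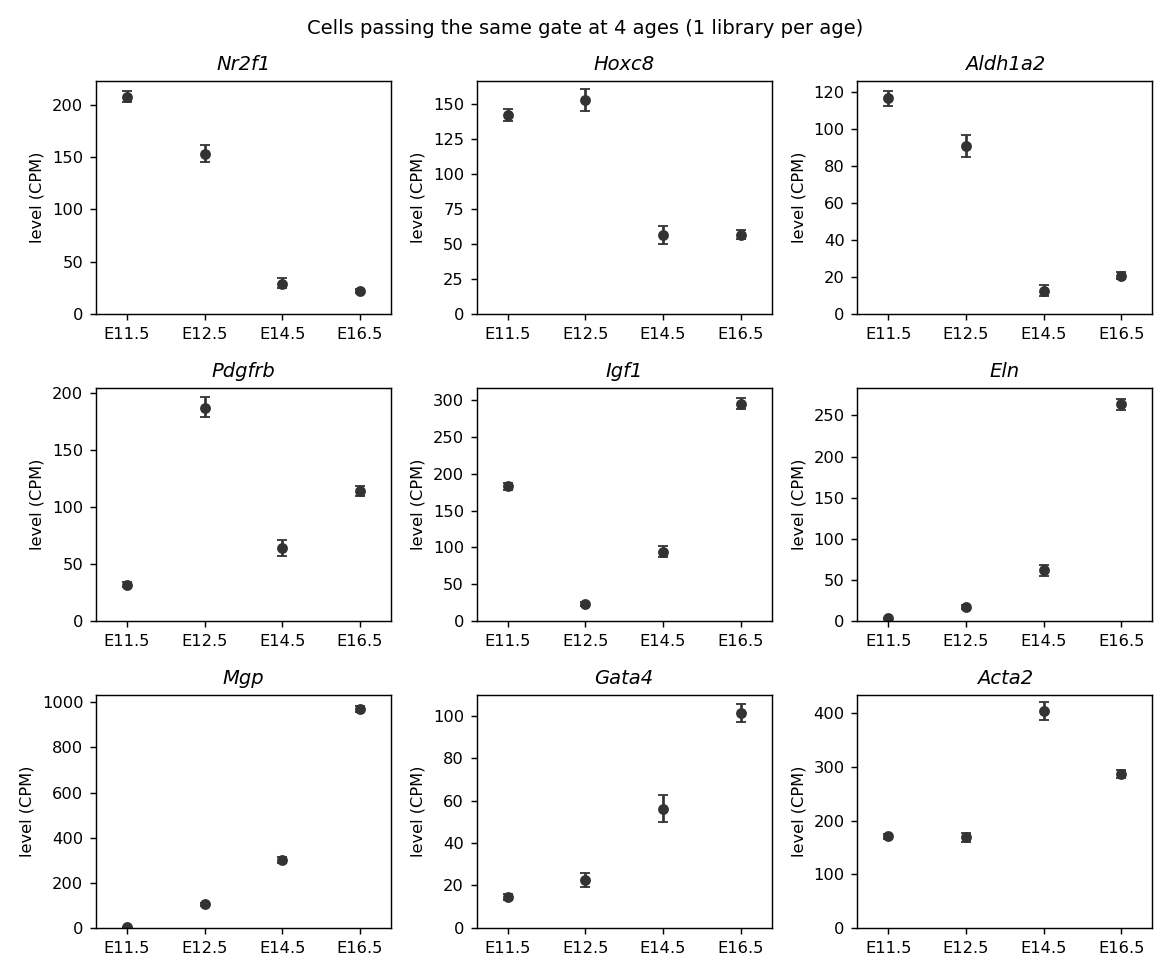
Levels in CPM with 95% Poisson intervals of 9 genes in cells chosen by the same rule at E11.5, E12.5, E14.5 and E16.5, 1 library each. Nr2f1, Hoxc8, Aldh1a2 and Pdgfrb are lower at E14.5 than at E12.5, and Igf1, Eln, Mgp, Gata4 and Acta2 are higher.

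Markers of other cell types in the members are given for the whole of each list, and their part in the differences was not tested. The 10 supporting cell genes summed to 72.1 and 139.7 CPM at E12.5 and E14.5, with Gng13, the most abundant at E14.5, at 3.65 and 42.4 CPM and Wnt6 at 0 by the rule, against 2942 and 4188 CPM in the Wnt6-positive cells. The 8 epithelial genes summed to 129 and 213 CPM, led by Lgals7 at 73.1 and 181 CPM, with Msln at 0. Without Lgals7 the sum was 55.5 and 31.3 CPM, and the keratin Krt18 was at 27.1 and 9.30 CPM. The 12 germ cell genes summed to 20.7 and 90.4 CPM, led by Dppa5a at 6.98 and 18.8 CPM, and Sycp1 was at 0 at E12.5. The 6 Sertoli genes summed to 31.8 and 16.3 CPM, with Sox9 at 19.9 and 5.90 CPM, the 5 cartilage genes to 22.0 and 6.26 CPM and the 11 mesonephric tubule genes to 39.0 and 44.9 CPM, led by Cdh6.

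The 10 erythroid genes summed to 5904 and 5132 CPM, led by Hbb-y at E12.5 and Hbb-bs at E14.5, and 4 and 5 members had more than 10% haemoglobin UMIs. In the other somatic cells the same genes summed to 1009 and 1502 CPM. Cells above 10% haemoglobin UMIs were left out of the other somatic cells but kept among the members. The 10 endothelial genes summed to 82.6 and 58.9 CPM, with Cdh5 and Pecam1 at 0 by the rule, and Emcn at 44.6 and 20.8 CPM. The 8 mural genes summed to 73.5 and 76.8 CPM, of which Ndufa4l2 was at 6.13 and 21.3 CPM, Kcnj8 at 23.4 and 17.0 CPM, Rgs4 at 5.05 and 0.895 CPM and Notch3 at a log2 ratio of -0.50. The 11 immune genes summed to 62.3 and 33.5 CPM, led by C1qb, and the 7 steroidogenic genes to 3.44 and 6.26 CPM, led by Star. The 9 neural genes summed to 94.0 and 22.7 CPM, led at E12.5 by Stmn2, a neuronal microtubule protein, at 81.8 CPM, with 1 UMI at E14.5. Stmn2 and Nefm, both known from neurons, were high at E12.5 and low at E14.5.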

How the data were processed

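The authors made the files with Cell Ranger 3.1.0 on the 10x mm10 reference and deposited raw UMI counts per gene and cell, 31053 genes in each of 7 libraries, not normalized. Gene positions are from GENCODE vM21 on GRCm38. The E12.5 and E14.5 libraries held 56662365 and 88627169 UMIs in 4744 and 11417 cells.

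Members were chosen by thresholds on UMIs, and the members, gene lists and named genes were chosen with earlier results of these data known. UMIs of the members were summed per library and scaled to CPM. Genes with a mean of the 2 levels of at least 10 CPM were compared, and a ratio of at least 2 was called. The study's methods give no test between ages, and with 1 library per age none was run. Named genes were the 12 with the largest and the 12 with the smallest ratio of E14.5 to E12.5 (10 CPM added, mean level at least 30 CPM), and the 12 furthest above the other somatic cells, leaving out genes of the rule, haemoglobin, mitochondrial, ribosomal, Y-linked and marker-list genes, Xist and unnamed loci. Some of the named and listed genes are not reported here. Ebf1, Cxcl12, Ckb and Tgfbi in the subsets, and the division of members by Nr2f1, were chosen after their values were seen. Doublets were kept; Scrublet in scanpy 1.11.5 marked 0.510 and 3.54% of cells by its own threshold, so the 5% with the highest scores (32 and 12 members) were left out as an alternative. Cells were thinned to 3000 UMIs with seed 1 where shares of cells were compared. The procedure was tested on simulated data. Python 3.11.15, numpy 2.4.6, scipy 1.17.1 and pandas 2.3.3 were used.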

Additional observations from a re-analysis of the deposited data

Results flagged for a closer look

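Ndufa4l2, a gene of the mural marker list, lay below the other somatic cells at E12.5 and above them at E14.5, at ratios of 0.397 and 5.68, and the difference was not tested. Its level was 6.13 and 21.3 CPM in the mesenchyme and 301 and 303 CPM in the Rgs5-positive cells, of which there were 105 and 23. Smtnl2, a smoothelin-like gene, went the same way, at ratios of 0.439 and 2.10, with 6.34 and 21.6 CPM in the mesenchyme, and this difference was not tested either. These are the 2 genes of 7662 that were called in opposite directions at the 2 ages.

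Y-linked genes lie outside the comparisons. At E12.5, 69 members had a Y-linked UMI, beside 0 of 940 at E14.5, and 7.95% of the other somatic cells at E12.5 had one.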

How the results depend on the processing

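No paired analysis was possible because each age is 1 library. Of 96 counts and shares under an alternative, 75 stayed within 1.5 times the main count or inside the interval of the share and 21 did not. With the rule applied to cells thinned to 3000 UMIs, 717 genes fell. With a mean level of at least 1 CPM, 766 genes were higher and 1390 lower, and with at least 50 CPM, 77 and 70. Over the other somatic cells at E12.5, 784 genes were above and 930 below when cells near the rule were left out, and 131 and 122 at a minimum of 50 CPM, and at E14.5 the same minimum gave 189 and 205. The share of cells in the rule at E12.5 was 10.2% on thinned cells, 19.4% with at least 200 genes, 13.7% with at least 10 and 25.4% with at least 3 collagen UMIs, and 18.4% with no Upk3b, Rgs5, Dazl or Ddx4 UMI. At E14.5 these shares were 5.63, 8.60, 5.54, 11.0 and 8.05%. The settings that change a minimum or the cells admitted alter the genes or cells counted by construction; the cause of the other changes was not tested. Of 104 called genes of the lists and named genes, 102 kept their direction and 55 stayed past 2-fold under every alternative in which they were computed, which was 17 alternatives for all but Gata4 (15) and Nr2f1 (16), each left out where it divides the members. Hoxa10 and Inhba turned to log2 ratios of 0.16 each in members with a Gata4 UMI. Foxd1 had 0 UMIs at E14.5 under all 17 and is counted as lower, as is Hist1h2ap in members with a Gata4 UMI and in non-dividing members, where it had none; no log2 ratio is given for these, nor for Aurkb in non-dividing members. Of the medians of 24 lists, 12 kept their sign under all 17, and the Hox median ranged from -1.77 to -0.78. The other 12 changed sign under at least 1: mitosis genes (-0.60 to 0.27), DNA replication genes (-0.01 to 0.36), imprinted growth genes (-0.48 to 0.02), collagen chains (-0.18 to 0.16), matrix glycoproteins and proteoglycans (-0.40 to 0.01), matrix proteases and inhibitors (-0.25 to 0.23), steroid genes (-0.29 to 0.10), and the Hedgehog (-0.21 to 0.07), PDGF (-0.19 to 0.31), FGF (-0.02 to 0.43), IGF (-0.29 to 0.13) and TGF-beta and BMP lists (-0.05 to 0.38, in 10 alternatives). Members at E14.5 were shallower than at E12.5, which limits what can be said of genes near 10 CPM.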
